A study of Mus musculus with 6 samples.

Results

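The 10 genes H2-K1, H2-D1, H2-T23, H2-M3, B2m, Tap1, Tap2, Tapbp, Nlrc5 and Erap1 build, load or switch on major histocompatibility complex (MHC) class I molecules. They were found by symbol among the 54532 genes of the expression table, each in a single row, and all 10 were among the 13441 genes with enough signal to be tested. RNA was sequenced from mouse marrow cells that the labels call BMDM. The study's results spell this out as bone marrow-derived macrophages (BMDMs), whereas its methods speak of bone marrow-derived monocytes. These cells had been co-cultured with ID8, a cancer line that came from the ovarian surface epithelium of a female mouse. Before the co-culture the tumour cells were exposed either to the DNA-crosslinking drug cisplatin at 40 µM (3 libraries, called cisplatin below) or to phosphate-buffered saline (3 libraries, called PBS). Both groups shared everything else that the labels state, and the marrow donors were C57BL/6 mice per the study's methods. The study's methods speak of biological replicates, but neither they nor the labels tie a library to a culture or an animal, and p-values measure the spread between these libraries. The time of co-culture and the way the BMDMs were separated from the ID8 cells are not given in the sources used here.

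An MHC class I molecule is a heavy chain held together by β2-microglobulin (B2m) and a short peptide. Peptides cut by the proteasome are pumped into the endoplasmic reticulum by the transporter Tap1/Tap2, trimmed there by the aminopeptidase Erap1, and fitted to the heavy chain by tapasin (Tapbp), which ties the empty molecule to the transporter. H2-K1 and H2-D1 encode the classical heavy chains that show peptides to CD8+ T cells. H2-T23 encodes Qa-1, a non-classical heavy chain read by inhibitory receptors of natural killer cells, and H2-M3 encodes one that presents N-formylated peptides. Nlrc5 is the transactivator that drives class I genes as a group, and interferons raise most of this machinery in macrophages and in many tumour cells.

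All 10 genes were lower in the cisplatin libraries, and in each of them every cisplatin library lay below every PBS library. Of the 13441 genes tested, 37.2% had that arrangement and 35.2% the opposite one. A gene was called when its adjusted p was under 0.05 and its log2 fold change was at least 1 in size, and 4 members were called lower (Tapbp, Tap1, Tap2 and H2-T23) and 0 higher, against 11.3% of all tested genes called lower and 4.67% called higher. With the adjusted p alone, all 10 were lower and 0 higher, against 35.1% and 32.9% of tested genes. The median log2 fold change of the 10 was -0.77, and that of all tested genes was -0.0011. Adjusted p-values are from limma with Benjamini-Hochberg adjustment over all tested genes, and fold changes are cisplatin against PBS on log2(FPKM + 1), where FPKM is fragments per kilobase of gene per 1000000 reads.

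Markers of the cell types in the co-culture also differed between the groups, so every comparison below was made across that difference. The summed FPKM of 16 markers of ID8 and mesothelial cells was 1313 to 1415 in the PBS libraries and 249.9 to 270.4 in the cisplatin libraries, and 8 of the 11 that could be tested fell and 0 rose, against 11.3% and 4.67% of all tested genes. Krt19, an epithelial keratin, went from a mean of 588 FPKM to 51.1 FPKM, Krt8 from 151 to 24.2 and the mesothelial surface protein gene Msln from 99.9 to 61.0. The other direction was seen in Cdh1, which encodes E-cadherin (3.24 to 5.41 FPKM, log2 fold change 0.60, limma adjusted p = 0.00238, but -0.20 when libraries were scaled to equal levels of the Y-linked genes), and in the tight junction gene Cldn1 (1.22 to 2.65 FPKM, log2 fold change 0.72, limma adjusted p = 0.000433, past the fold threshold at 1.07 with a pseudocount of 0.1 and at 1.21 under voom, a weighted fit on reads recovered from the FPKM), both named after their values were seen. No marker of this list was at 0 in all 6 libraries, and Krt7, Pax8 and Igfbp5 were at 0 in some. The 10 macrophage markers summed to 1638 to 1649 FPKM in PBS and 4203 to 4356 FPKM in cisplatin. Most of each sum was Lyz2, with means of 1161 FPKM in PBS and 3459 FPKM in cisplatin. Of the 10 markers, 4 rose and 0 fell, beside the same shares. The defining markers were present in every library, with means of 103.1 and 189.7 FPKM for Adgre1 (F4/80), 44.0 and 84.5 for Csf1r, and 34.96 and 95.2 for Itgam (CD11b), in PBS and cisplatin. Of these 3 only Itgam was called, with a log2 fold change of 1.42, and when libraries were scaled by the Y-linked genes it came to 0.44 and was no longer called, with Adgre1 and Csf1r at -0.12 and -0.057. Csf1r passed both thresholds under quantile normalisation (1.004) and under voom (1.03). Xist, the transcript that silences an X chromosome in female cells, went from 42.7 to 7.79 FPKM, and the Y-linked genes Uty, Kdm5d, Ddx3y and Eif2s3y, which only male cells carry, summed to 19.49 to 22.69 FPKM in PBS and 41.58 to 42.8 FPKM in cisplatin. The part of these marker differences in the class I results was not tested. In bulk RNA, fewer cells of a type and less RNA per cell cannot be told apart.

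Tapasin had the lowest fold change of the 10. Tapbp (ENSMUSG00000024308, chr17:33915899-33929288, plus strand, GRCm38) was measured at 329, 301 and 316 FPKM in PBS replicates 1 to 3 and at 87.5, 89.4 and 86.5 FPKM in cisplatin replicates 1 to 3. The groups were far apart and the cisplatin libraries nearly equal, with means of 315 ± 13.9 and 87.8 ± 1.45 FPKM (SD, n = 3 each). The PBS mean was 3.59 times the cisplatin mean, and the log2 fold change was -1.83 (SE 0.0402, 95% interval -1.93 to -1.74, limma adjusted p = 1.14e-07). Of all tested genes, 3.68% had a lower or equal log2 fold change. In the GENCODE M21 annotation 29% of the exonic bases of Tapbp are shared with Zbtb22 and the antisense gene Gm19412, but Gm19412 did not exceed 0.196 FPKM and Zbtb22 was at 14.4 to 16.5 FPKM in PBS and 14.4 to 16.8 FPKM in cisplatin.

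The transporter subunits fell as well. Tap1 (ENSMUSG00000037321, chr17:34187553-34197225, plus strand) stood at 60.2, 56.9 and 61.7 FPKM in PBS and at 18.4, 19.02 and 19.6 FPKM in cisplatin. The groups were far apart, with means of 59.6 ± 2.44 and 19.005 ± 0.628 FPKM, a PBS level 3.14 times the cisplatin level. The log2 fold change was -1.60 (SE 0.0446, 95% interval -1.71 to -1.49, limma adjusted p = 2.72e-07). Tap2 (ENSMUSG00000024339, chr17:34203527-34216321, plus strand) gave 35.8, 30.9 and 36.2 FPKM in PBS and 12.5, 15.8 and 14.8 FPKM in cisplatin. It varied more between libraries than Tap1, yet its highest cisplatin value was well under its lowest PBS value. Its log2 fold change was -1.20 (SE 0.0949, 95% interval -1.43 to -0.98, limma adjusted p = 3.43e-05), so that the interval reached past the threshold of 1. In the annotation 18.5% of the exonic bases of Tap2 are shared with Gm15821 and Gm20496, which were at no more than 3.55 and 0.937 FPKM.

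**Figure D1:**
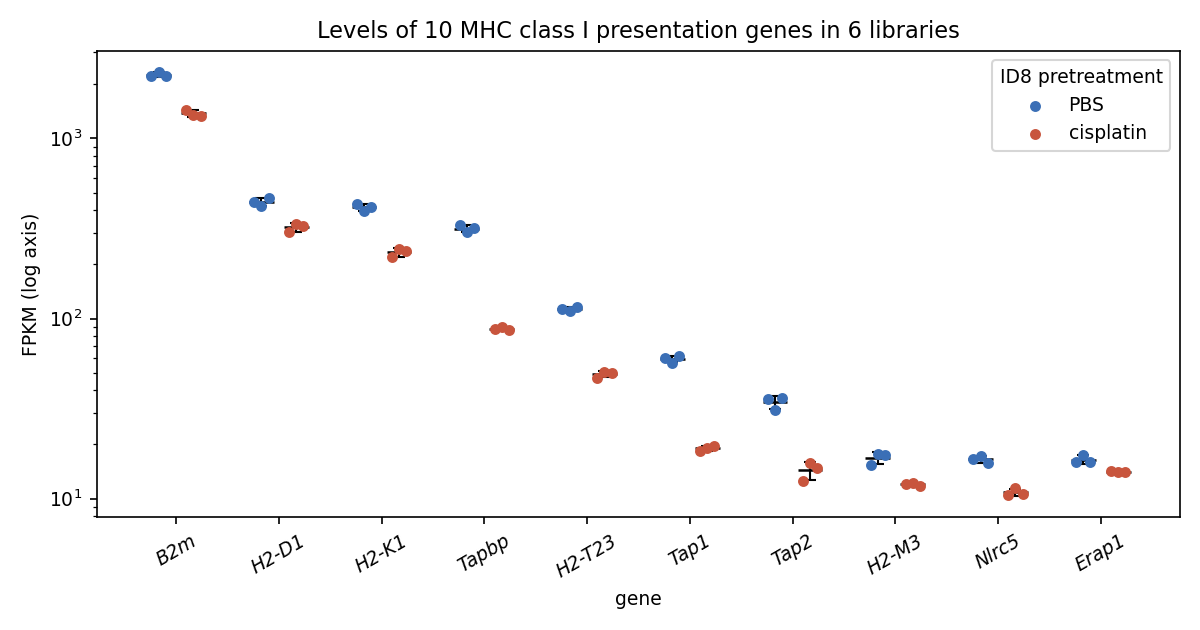
FPKM on a log axis for the 10 class I presentation genes, ordered by their mean in PBS, with 1 point for each library (3 PBS in blue, 3 cisplatin in red), a bar at each group mean and whiskers of 1 SD. Every red point lies below every blue point of the same gene, from B2m at 1324 to 2335 FPKM down to Nlrc5 at 10.5 to 17.3 FPKM.

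Among the heavy chains, the non-classical H2-T23 was the member that was called. H2-T23 (ENSMUSG00000067212, chr17:36029773-36032855, minus strand) was at 112, 110 and 115 FPKM in PBS and at 46.8, 50.7 and 49.9 FPKM in cisplatin. Both groups were tight, at 112.5 ± 2.66 and 49.1 ± 2.08 FPKM, and the cisplatin level was 43.7% of the PBS level. The log2 fold change was -1.18 (SE 0.0414, 95% interval -1.28 to -1.08, limma adjusted p = 7.24e-07). H2-T23 shares 3.15% of its 100-base stretches with transcripts of other genes, H2-D1 and H2-T22 among them.

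The classical heavy chains were lower by smaller amounts and unequally. H2-K1 (ENSMUSG00000061232, chr17:33996017-34000333, minus strand) was measured at 430, 395 and 417 FPKM in PBS and at 219, 244 and 236 FPKM in cisplatin. The cisplatin mean of 233 ± 12.5 FPKM was 56.3% of the PBS mean of 414 ± 17.9 FPKM, with a log2 fold change of -0.83 (SE 0.0519, 95% interval -0.95 to -0.70, limma adjusted p = 1.11e-05). H2-D1 (ENSMUSG00000073411, chr17:35262730-35267499, plus strand) was at 445, 422 and 467 FPKM in PBS and at 300.2, 335 and 328 FPKM in cisplatin. Its cisplatin mean of 321 ± 18.4 FPKM was 72.2% of the PBS mean of 445 ± 22.4 FPKM, with a log2 fold change of -0.47 (SE 0.0563, 95% interval -0.60 to -0.34, limma adjusted p = 0.000287). Neither interval reached 1. Reads of these related genes are less certain, since 0.957% of the 100-base stretches of H2-K1 and 3.59% of those of H2-D1 also occur in other transcripts. The share was larger for Tapbp (14.8%, with Gm19412 and AC122861.4), Erap1 (10%, with Cast) and Tap2 (4.99%, with Gm15821 and Gm20496).

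H2-M3 (ENSMUSG00000016206, chr17:37270220-37274484, plus strand) was expressed at a far lower level than the classical genes, with 15.4, 17.8 and 17.6 FPKM in PBS and 12.02, 12.2 and 11.7 FPKM in cisplatin. The lowest PBS library was still above every cisplatin library. The log2 fold change was -0.46 (SE 0.0621, 95% interval -0.61 to -0.31, limma adjusted p = 0.000525), close in size to that of H2-D1.

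B2m (ENSMUSG00000060802, chr2:122147686-122153083, plus strand), the light chain of every class I molecule, was the most abundant member, with the rank 5 among tested genes in PBS and 14 in cisplatin. It gave 2212, 2335 and 2224 FPKM in PBS and 1444, 1353 and 1324 FPKM in cisplatin. The means of 2257 ± 67.7 and 1374 ± 62.4 FPKM differed by much more than the spread within either group, and the cisplatin level was 60.9% of the PBS level. The log2 fold change was -0.72 (SE 0.0461, 95% interval -0.83 to -0.61, limma adjusted p = 1.25e-05), which was not called.

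The transactivator and the trimming enzyme had modest differences. Nlrc5 (ENSMUSG00000074151, chr8:94434356-94527272, plus strand) was at 16.5, 17.3 and 15.8 FPKM in PBS and at 10.5, 11.4 and 10.7 FPKM in cisplatin, with a log2 fold change of -0.56 (SE 0.0519, 95% interval -0.69 to -0.44, limma adjusted p = 7.48e-05). Erap1 (ENSMUSG00000021583, chr13:74639568-74693201, plus strand) was at 15.9, 17.5 and 15.9 FPKM in PBS and at 14.2, 14.1 and 14.04 FPKM in cisplatin. The 3 cisplatin libraries of Erap1 were almost identical, at 14.1 ± 0.0759 FPKM, and lay just under the lowest PBS library. Its log2 fold change was -0.21 (SE 0.0482, 95% interval -0.32 to -0.093, limma adjusted p = 0.00717), the smallest of the 10, and 35.8% of all tested genes had a lower or equal value. Erap1 shares 11.5% of its exonic bases with its neighbour Cast, which was at 14.3 to 15.2 FPKM in PBS and 12.1 to 13.4 FPKM in cisplatin.

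**Figure D2:**
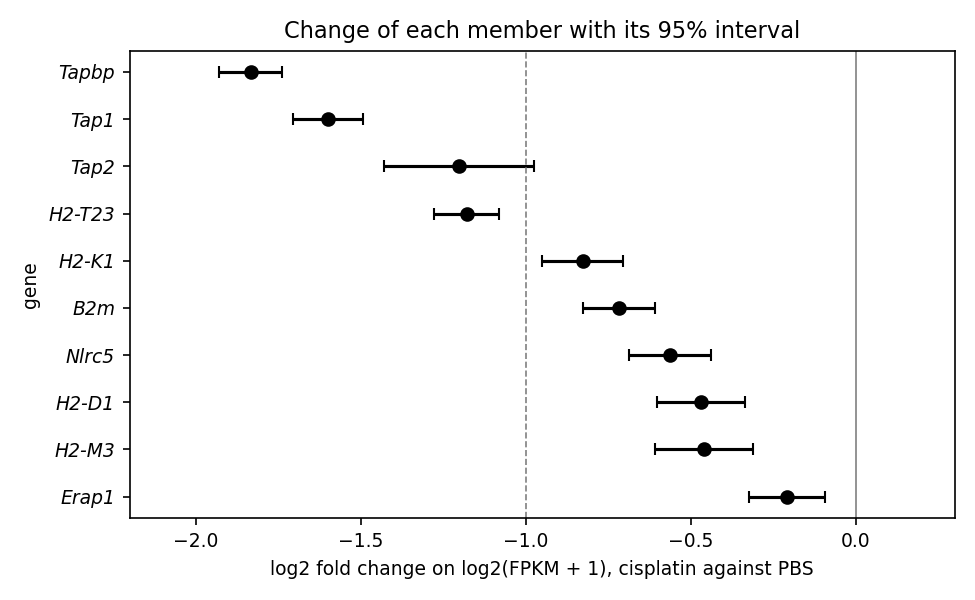
Log2 fold change of each of the 10 genes (cisplatin against PBS, on log2(FPKM + 1)), with points for the limma estimates and whiskers for their 95% intervals. All intervals lie below 0, and those of Tapbp, Tap1 and H2-T23 lie wholly beyond the dashed threshold at -1, while that of Tap2 runs from -1.43 to -0.98.

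The order of the levels was nearly kept between the groups. In PBS, B2m was followed by H2-D1 and H2-K1, whose library ranges overlapped, then by Tapbp, H2-T23, Tap1 and Tap2, each apart from its neighbours, and last by H2-M3, Nlrc5 and Erap1, which overlapped. In cisplatin the first 7 places were the same, H2-D1 and H2-K1 no longer overlapped, and Erap1 stood above H2-M3 and Nlrc5, with a range that overlapped that of Tap2. All of these are levels in FPKM, which is corrected for gene length.

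Multiplying a library by a factor leaves the ratios within it unchanged, and 3 were compared. The summed FPKM of H2-K1 and H2-D1 over that of B2m was 0.396, 0.35 and 0.397 in PBS and 0.36, 0.428 and 0.426 in cisplatin. These groups overlapped, at 0.381 ± 0.027 and 0.405 ± 0.039, and no difference was detected (log2 difference 0.084, exact permutation test over libraries, two-sided, p = 0.5, adjusted p = 0.5 over the 3 ratios). Quantile normalisation, which is not a single factor, took B2m to a log2 fold change of -1.19 and H2-K1 and H2-D1 to -0.84 and -0.44, so that this ratio depends on it. The ratio of H2-K1 to H2-D1 was 0.966, 0.936 and 0.894 in PBS and 0.73, 0.727 and 0.72 in cisplatin. Every cisplatin library was lower (log2 difference -0.36, exact permutation p = 0.1, adjusted p = 0.15), and 0.1 is the smallest p that 3 libraries against 3 can give. The ratio of Tap1 to Tap2 was 1.68, 1.84 and 1.71 in PBS and 1.46, 1.21 and 1.33 in cisplatin, again without overlap (log2 difference -0.39, exact permutation p = 0.1, adjusted p = 0.15).

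Of the 10 genes, 7 lie in the MHC on chromosome 17, and Tap1 and Tap2 are interleaved there with genes for subunits of the immunoproteasome, the form of the proteasome whose cuts favour class I peptides. Psmb9 runs on the opposite strand and overlaps the start of Tap1 by 212 bases, Psmb8 begins 495 bases after the end of Tap1, and Tap2 begins 2072 bases after Psmb8. Psmb9 fell from 20.5, 19.9 and 23.4 FPKM in PBS to 7.18, 8.51 and 9.05 FPKM in cisplatin (log2 fold change -1.27, limma adjusted p = 2.47e-05). Psmb8, between the transporter genes, was at 42.8, 35.4 and 40.6 FPKM in PBS and at 21.8, 28.2 and 27.2 FPKM in cisplatin, and its log2 fold change of -0.61 (limma adjusted p = 0.00229) was not called. The groups did not overlap in any of the 4 neighbours, an arrangement that 37.2% of all tested genes had, and Psmb8 had the smallest fold change. The bases that Tap1 and Psmb9 share are 3.87% of the exonic bases of Tap1, and without a stated strand setting reads from the shared bases cannot be told apart.

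**Figure D3:**
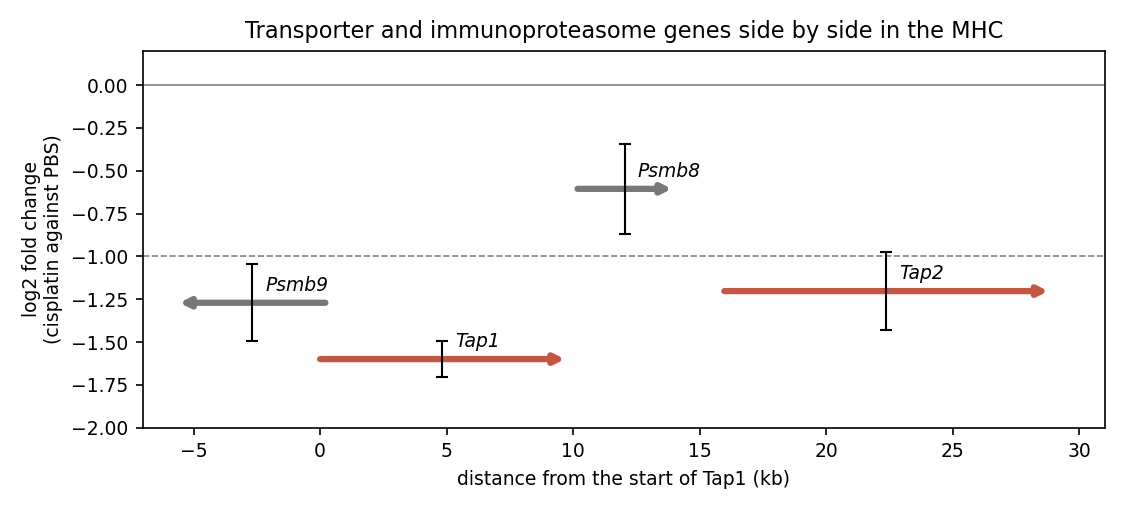
Log2 fold change (cisplatin against PBS) of the 4 adjacent genes Psmb9, Tap1, Psmb8 and Tap2 against their distance in kb from the start of Tap1. Arrows span each gene and point along its strand (members in red, other genes in grey), whiskers are 95% intervals, and Psmb8 at -0.61 stands above the other 3, which lie beyond the dashed line at -1.

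Promoters of class I genes are known for a shared layout, an element bound by NF-kB beside an interferon-stimulated response element (ISRE) upstream of an SXY module. The RefSeq promoter table (GRCm38.p6, 300 bases from 250 before to 50 after each start) held 8 of the members, and Tap2 and Nlrc5 had no entry. The elements below are shown because they are the stretches in which members with a match can be compared letter by letter. No element is shown for Tapbp, Tap1 or Tap2, and of the members shown only H2-T23 was called. In the first 4, capitals mark an NF-kB consensus match and a match to the core letters of an ISRE on either strand (GAANNGAAA, also taken with 1 more A before the NN), and in the last 2 they mark the latter alone. All are written 5′ to 3′ along the gene's own strand.
H2-K1, chr17:34000429-34000458: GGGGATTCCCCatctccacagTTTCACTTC
H2-D1, chr17:35262923-35262952: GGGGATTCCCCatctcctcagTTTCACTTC
H2-M3, chr17:37270108-37270141: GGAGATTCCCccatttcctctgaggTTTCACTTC
B2m, chr2:122147548-122147570: GAAACTGAAAatgGGAAAGTCCC
H2-T23, chr17:36032806-36032835: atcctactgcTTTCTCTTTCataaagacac
Erap1, chr13:74639839-74639868: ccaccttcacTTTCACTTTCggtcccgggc

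H2-K1 and H2-D1 were identical at 29 of the 30 bases of this element, while their log2 fold changes were -0.83 and -0.47. In B2m the order of the elements is turned around, and in Erap1 the match begins only 4 bases upstream of the start. That start is the one of the promoter table. The elements shown for H2-D1, H2-T23 and Erap1 overlap annotated exons of these same genes in GENCODE M21, so the annotated starts differ. Longer stretches are shown for H2-K1 and B2m, a heavy chain and its light chain, because they hold the whole layout. Besides the same matches, capitals mark TGACG, which is part of the X2 box of the SXY module, and the core of its Y box, CCAAT, which reads ATTGG on the other strand.
H2-K1, chr17:34000348-34000597, minus strand: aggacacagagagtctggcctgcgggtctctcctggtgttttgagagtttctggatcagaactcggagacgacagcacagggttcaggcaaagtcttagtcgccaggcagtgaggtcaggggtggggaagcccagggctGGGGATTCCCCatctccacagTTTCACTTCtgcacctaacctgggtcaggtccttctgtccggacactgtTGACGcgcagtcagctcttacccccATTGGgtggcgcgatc
B2m, chr2:122147437-122147685, plus strand: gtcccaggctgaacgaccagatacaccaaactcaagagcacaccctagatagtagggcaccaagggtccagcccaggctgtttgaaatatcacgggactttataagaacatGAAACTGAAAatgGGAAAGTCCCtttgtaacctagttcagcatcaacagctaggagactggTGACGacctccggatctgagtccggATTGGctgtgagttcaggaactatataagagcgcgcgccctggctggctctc

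Counted over both strands, the ISRE core was present in 6 of the 8 promoters (H2-K1, H2-D1, H2-T23, H2-M3, B2m and Erap1), against 10.4% of all 32851 promoters of the table. The NF-kB consensus was present in 4 (H2-K1, H2-D1, H2-M3 and B2m), against 4.51% of all. TGACG was found in 5 of the 8, against 20.8% of all, and CCAAT in 7, against 37.4%. The windows of Tapbp and Tap1, the members with the lowest fold changes, held neither of the first pair of motifs, and that of Erap1, with the smallest change, held the first. A match is a description of letters and not a site shown to be used, and a window without one says only that these letters are not in it.

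The other genes of the pathway were read from lists by role. Of 8 further heavy chain genes that could be tested, 2 fell and 0 rose, against 11.3% of all tested genes called lower and 4.67% called higher. Their median log2 fold change was -0.69, and -0.28 with no filter and -1.59 under Y-linked scaling. H2-T22, which encodes a ligand of some γδ T-cell receptors, fell from 78.9, 78.4 and 79.4 FPKM in PBS to 20.3, 21.3 and 21.4 FPKM in cisplatin (log2 fold change -1.86, limma adjusted p = 7.82e-08). H2-M2 fell from a mean of 2.65 to 0.207 FPKM (log2 fold change -1.59, limma adjusted p = 2.44e-05) on a mean of 36 reads per library, and its log2 fold change was -3.17 with a pseudocount of 0.1 and -3.49 under voom. Another 5 of the 8 were lower at an adjusted p under 0.05 without reaching the fold threshold, where 35.1% of all tested genes were lower at that p alone, and H2-M9 and H2-M11 were at 0 in all libraries. The class I-like molecules, which share the fold but mostly not the peptide, went both ways, with 2 that rose and 3 that fell of 10 tested (4.67% and 11.3% of all tested genes) and a median of -0.37, which came to 1.26 with a filter at 5 FPKM, -0.033 with no filter and -1.13 under Y-linked scaling. Cd1d1, which presents lipids to natural killer T cells, rose from 1.96 ± 0.075 to 7.30 ± 0.986 FPKM (log2 fold change 1.48, limma adjusted p = 1.14e-05; 0.70 and no longer called under Y-linked scaling), and Azgp1, a soluble relative, fell from 6.44 ± 0.616 to 0.511 ± 0.128 FPKM (log2 fold change -2.30, limma adjusted p = 1.89e-06; -3.44 with a pseudocount of 0.1 and -3.56 under voom).

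The chaperones that work beside tapasin gave no calls, a count that at this list size is near the background. Of 11 genes of the loading complex and its partners, 0 passed both thresholds in either direction, against 11.3% of all tested genes called lower and 4.67% called higher, although at an adjusted p under 0.05 alone limma gave 6 lower and 3 higher, and the list median was -0.12. Limma voom on reads recovered from the FPKM also called 0. The 4 partners of tapasin named here were chosen after their values were seen. Calr, the lectin chaperone that holds heavy chains in the loading complex, was at 333 ± 12.2 FPKM in PBS and 441 ± 6.52 FPKM in cisplatin (log2 fold change 0.40), and Canx, its membrane-bound relative, at 145 ± 2.33 and 173 ± 7.49 FPKM (log2 fold change 0.26), a direction that turned for both when libraries were scaled by the Y-linked genes (-0.59 and -0.74). Pdia3, the disulphide isomerase linked to tapasin, was at 262 and 237 FPKM (log2 fold change -0.15). Tapbpl, the tapasin-related editor TAPBPR, was at 10.99 ± 1.09 and 10.3 ± 1.15 FPKM with overlapping groups (log2 fold change -0.085, 95% interval -0.31 to 0.144).

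**Figure D4:**
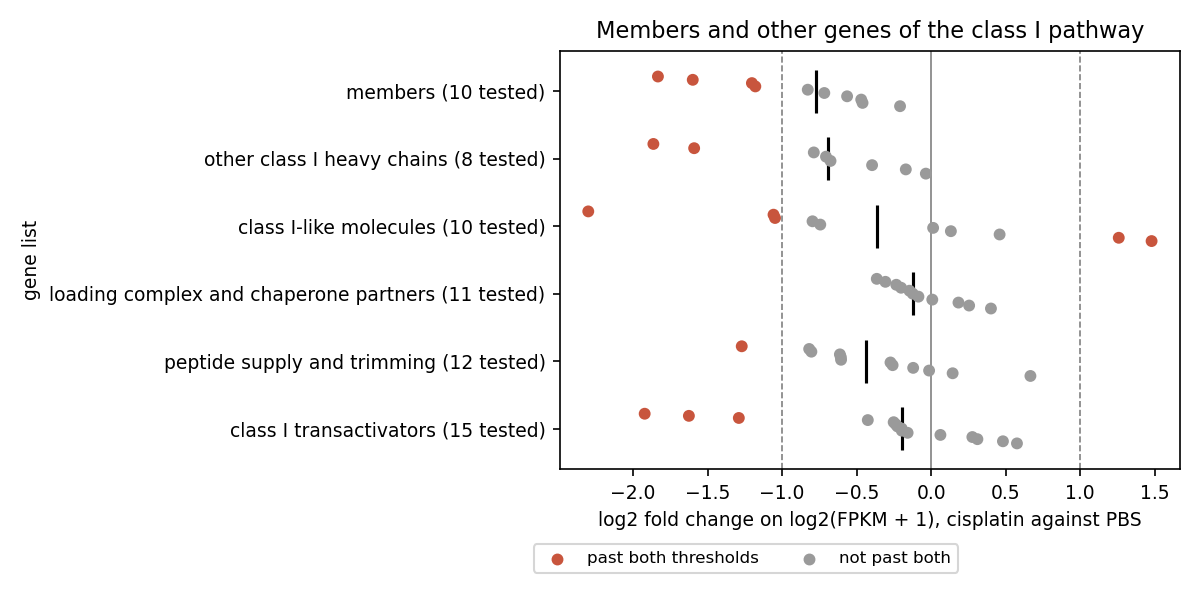
Log2 fold changes (cisplatin against PBS, on log2(FPKM + 1)) of the members and of the tested genes of 5 further class I lists, with 1 point for each gene, red where it passed both thresholds, and a black line at each list's median. The members' median is -0.77, that of the loading partners -0.12, and all points of the members and of the other heavy chains lie below 0.

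For the supply of peptides, 1 of 12 genes fell and 0 rose, a share near the 11.3% of all tested genes called lower, with a list median of -0.44. The gene that fell was Psmb9, and the third immunoproteasome subunit, Psmb10, was at 48.9 ± 3.68 and 31.7 ± 3.15 FPKM (log2 fold change -0.61, limma adjusted p = 0.000541), a difference nearly equal to that of Psmb8. Of 15 factors known to act on class I promoters, 3 fell and 0 rose, beside the same 11.3%, with a median of -0.20. Stat2, a subunit of the interferon-activated factor that binds the ISRE, fell from 72.5, 75.8 and 73.1 FPKM to 18.04, 19.3 and 18.9 FPKM (log2 fold change -1.92, limma adjusted p = 1.01e-07). Irf1, an interferon-induced activator that binds the same element, fell from 55.4, 55.1 and 57.4 FPKM to 21.9, 22.96 and 21.99 FPKM (log2 fold change -1.29, limma adjusted p = 2.87e-07). Irf2, which competes with Irf1 for its sites, was not called, at 10.4 ± 0.406 and 8.74 ± 0.418 FPKM (log2 fold change -0.23, limma adjusted p = 0.00754). Nlrc5 itself, at -0.56, lay between these. Under Y-linked scaling Psmb8 (-1.57), Psmb10 (-1.58), Irf2 (-1.13) and Pdia3 (-1.14) passed both thresholds, and the medians of the loading, supply and factor lists came to -1.10, -1.41 and -1.06. Quantile normalisation brought the loading median to -0.028 and the factor median to -0.12, and voom the loading median to -0.039.

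Over the 16 alternative settings tried for each member, the direction held: each gene was lower in all 16, and Tapbp, Tap1, Tap2 and H2-T23 were called in all 16. The settings that moved the values most were scalings. When the 4 Y-linked genes were brought to the same level in each library, the median of all tested genes moved to -0.83, all 10 members were called lower against 38.5% of tested genes, and relative to that shift the members lay between -1.99 (Tapbp) and -0.31 (Erap1). Under quantile normalisation B2m came to -1.19 and was called.

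**Figure D5:**
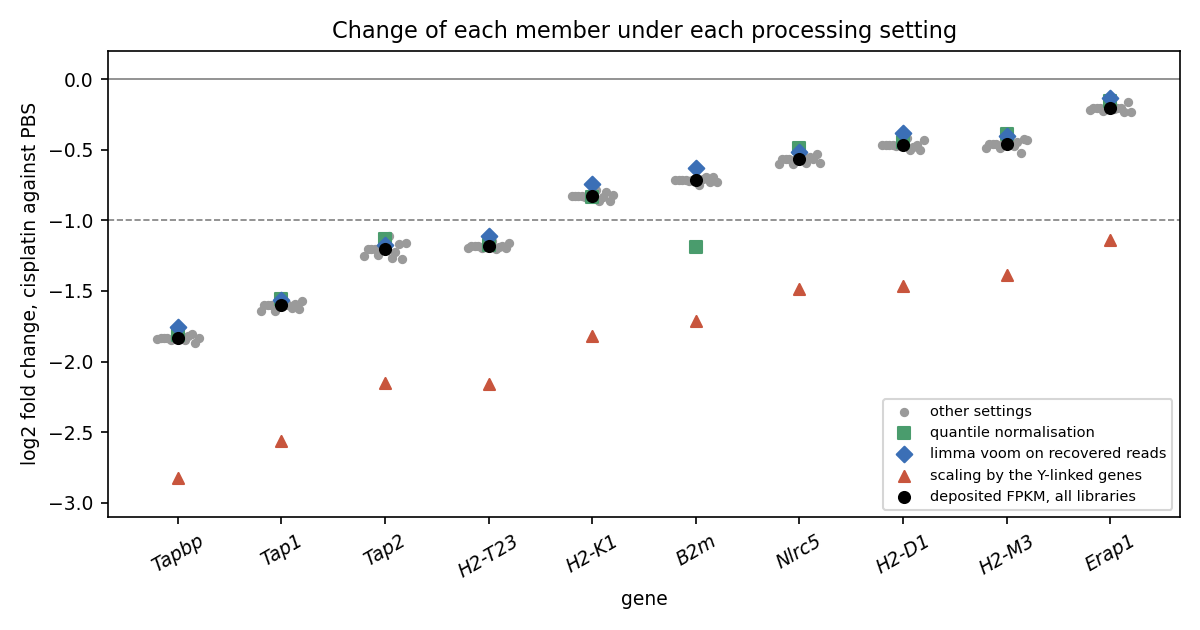
Log2 fold change of each of the 10 genes under each processing setting, with the deposited FPKM in black, quantile normalisation as green squares, voom on recovered reads as blue diamonds, scaling by the Y-linked genes as red triangles and all other settings in grey. All points lie below 0, from -2.82 for Tapbp under Y-linked scaling to -0.13 for Erap1 under voom.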

How the data were processed

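The authors deposited one table of FPKM values per gene and library, for 6 libraries of poly-T selected RNA. Per the labels' processing notes the tools were fastp, HISAT2 2.0.5 and featureCounts 1.5.0-p3 on mm10, whereas the study's methods name LifeScope and DESeq2; the strand setting is not given in the sources used here. Multiplied by gene length the FPKM gave whole reads for 100% of values under 200 reads (tolerance 0.01), 15776238 to 17924686 per library. The number of libraries and these reads limit the precision.

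Genes with at least 1 FPKM in at least 3 libraries were tested on log2(FPKM + 1) with limma 3.58.1 in R 4.3.3 (lmFit, eBayes with trend, group as the only term, all libraries) and Benjamini-Hochberg adjustment. The scale understates changes of low genes. On simulated reads for 13335 genes, 97.83% of 2-fold and 66.67% of 1.5-fold changes were recovered at the adjusted p. The simulation used a preset spread between libraries and changed few genes (46 tested at 2-fold, 48 at 1.5-fold). In the data many more genes passed the adjusted p, so these rates are not the power of the real comparison. Groups and replicate numbers came from the labels.

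The members, lists and tests were chosen with earlier results of these data known. Named were all members, the 2 called genes with the largest change in each pathway list, the immunoproteasome genes, Irf1, Irf2 and Stat2, and markers; some single-gene results are not reported here. Coordinates are those of the table, which match GENCODE M21 for 8 of the 10 members (not H2-K1 and Tapbp). Markers of dendritic cells, lymphocytes and neutrophils were read in the same way.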

Additional observations from a re-analysis of the deposited data

How the results depend on the processing

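The 10 members were lower in every setting tried, and leaving out each library in turn kept 4 called lower. Scaling by the Y-linked genes gave 85 genes higher and 5181 lower, all 10 members lower with a median of -1.77, and H2-K1 -1.82, H2-D1 -1.46, H2-M3 -1.39, B2m -1.71, Nlrc5 -1.49 and Erap1 -1.14 past both thresholds. It gave 7 other heavy chains, 5 class I-like molecules, 6 loading partners, 9 peptide supply genes and 9 transactivators lower and 0 class I-like molecules higher, and it turned Calr (-0.59), Canx (-0.74), Adgre1 (-0.12), Csf1r (-0.057), Eif2s3y (-0.25), Uty (-0.12), H60b (-0.12), Ulbp1 (-0.81) and Cdh1 (-0.20). Such scaling shifts all genes down by construction. Quantile normalisation gave a member median of -0.98, B2m at -1.19 and 1 class I-like molecule lower. A pseudocount of 0.1 gave 973 genes higher and 5 class I-like molecules lower, and a filter at 5 FPKM, which tests fewer genes, 1 other heavy chain and 1 class I-like molecule lower. Limma voom on the recovered reads gave 1227 genes higher and a member median of -0.69. The adjusted p alone gave 4424 genes higher and 4721 lower, 10 members, 7 other heavy chains, 5 class I-like molecules, 6 loading partners, 8 peptide supply genes and 8 transactivators lower, and 3 class I-like molecules, 3 loading partners, 2 peptide supply genes and 4 transactivators higher. Causes not stated were not tested.

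In a fit with a replicate block, 625 genes were higher, 1515 lower and 4 members lower, and no call of a member changed. Deviations of same-numbered libraries from their group means had correlations of -0.104, -0.0857 and -0.0235, so no pairing was seen. With so few pairs this cannot show that there was none. In the ratios the paired sign-flip test gave p = 0.75, 0.25 and 0.25 (exact). Genes with few reads, such as H2-M2, are limited by depth.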

Other observations

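Markers of other marrow-derived cells were also read from the table, and the summed level of each of these lists was higher in the cisplatin libraries. Over all tested genes 4.67% were called higher and 11.3% lower. Of 8 neutrophil markers, 5 rose and 0 fell, with a summed level of 4765 to 4932 FPKM in PBS and 8851 to 9101 FPKM in cisplatin. Of 7 tested lymphocyte markers, 3 rose and 0 fell, with sums of 116.9 to 125.9 and 273.2 to 279.4 FPKM. Of 5 tested dendritic cell markers, 3 rose and 0 fell, with sums of 19.06 to 20.47 and 44.65 to 46.88 FPKM, while Zbtb46, named after its values were seen, was lower at 1.60 and 0.609 FPKM (log2 fold change -0.69, limma adjusted p = 0.00039; -1.26 with a pseudocount of 0.1). Cd209a and Klrb1c were at 0 in some libraries, and no marker of these lists was at 0 in all. Their part in the class I results was not tested.

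The class I-like ligands of the natural killer receptor NKG2D were named after their values were seen, and H60c was too low to be tested. Raet1e fell from 5.53 ± 0.984 to 2.13 ± 0.369 FPKM (log2 fold change -1.06, limma adjusted p = 0.000337), though its annotated span overlaps that of H60b and both are less certain, Ulbp1 was at 4.73 ± 0.592 and 4.77 ± 0.289 FPKM (95% interval of the log2 fold change -0.20 to 0.226), and H60b was at 1.11 ± 0.271 and 1.88 ± 0.0945 FPKM (log2 fold change 0.46, limma adjusted p = 0.0107). H60b was at 0.74 with a pseudocount of 0.1 and at 0.86 under voom. Raet1d, which also overlaps Raet1e, was at 1.12 ± 0.343 and 1.34 ± 0.499 FPKM with overlapping groups (log2 fold change 0.13, limma adjusted p = 0.552). Mr1, which presents vitamin metabolites to mucosal-associated invariant T cells, fell from 2.62 ± 0.267 to 0.747 ± 0.0819 FPKM (log2 fold change -1.05, limma adjusted p = 6.44e-05). Mr1 was at -1.68 with a pseudocount of 0.1, -1.62 under Y-linked scaling and -1.72 under voom, and Raet1e at -1.81 under Y-linked scaling. Under quantile normalisation Mr1 came to -0.87 and Raet1e to -0.92, and neither was called; Raet1e was also not called without cisplatin replicate 1 (-0.99) or without PBS replicate 3 (-0.94). Procr, the endothelial protein C receptor, rose from 8.82 ± 0.727 to 22.5 ± 1.61 FPKM (log2 fold change 1.26, limma adjusted p = 7.81e-06), but was at 0.33 and not called under Y-linked scaling.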
